A study of Homo sapiens with 4 samples.

Results

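The genes described here encode 3 cytokines of the interleukin-6 family (IL6, IL11 and LIF) and 5 receptor subunits of that family (IL6ST, IL6R, IL11RA, LIFR and OSMR). The others encode the feedback inhibitor SOCS3 and the transcription factor STAT3. OSMR serves oncostatin M, which is not among the 3 cytokines. All genes were taken by symbol from a table of 20804 genes, and each of the 10 was found as 1 row. RNA had been sequenced in MDA-MB-231, a long-established line of human breast cancer cells of the triple-negative kind, without oestrogen and progesterone receptors and without amplified HER2. The 4 libraries were 2 of MDA-MB-231 cells labelled as knockout of the microRNA miR-3662 (KO) and 2 of MDA-MB-231 cells labelled wild type (WT). No treatment is named for either group. The labels leave unsaid by which means the knockout arose, whether KO is 1 clone, and whether the libraries of a group are separate cultures. The study's title names CRISPR interference and activation, and its design text names sorting by the activity of the microRNA, so what KO stands for is uncertain. All p-values therefore measure the spread between these libraries, which may be technical.

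Cytokines of this family signal through gp130, the receptor subunit encoded by IL6ST. IL6 first binds IL6R and IL11 first binds IL11RA, and each complex then recruits gp130, whereas LIF joins LIFR with gp130 and oncostatin M joins OSMR or LIFR with gp130. Janus kinases bound to these receptors phosphorylate STAT3, which moves to the nucleus and induces, among other genes, SOCS3, whose protein binds gp130 and the kinases and shuts the signal down. In breast cancer, IL6 and IL11 made by tumour cells have been studied for their part in invasion and in metastasis to bone.

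Levels are FPKM as the authors deposited them, fragment counts corrected for transcript length and for library size, so levels of different genes can be set side by side. The 4 libraries summed to between 504102 and 544650 FPKM. Depth is unknown, so no counting error can be given. Of 6 genes taken as markers of MDA-MB-231, VIM stood at 1191 and 1120 FPKM in KO and at 1162 and 1321 FPKM in WT. SPARC, also on that list, was under 1 FPKM in each library. CD44 and EGFR did not pass the test of the fit described further on, and the keratin genes KRT8 (log2 difference -1.10, adjusted p 0.0030 in limma) and KRT18 (-0.61, 0.0095) fell. ESR1, the oestrogen receptor gene, was at 0.01 FPKM or less. ERBB2, the HER2 gene, was at 11.4 and 8.55 FPKM in KO and at 8.59 and 10.5 FPKM in WT, and the luminal gene GATA3 was between 1.14 and 1.83 FPKM in the 4 libraries, neither passing the test. Of 7 leukocyte markers, PTPRC and CD3E were listed at 0 in every library, and only CD68 was tested, at 67.7 and 117 FPKM in KO against 30.2 and 39.0 FPKM in WT. The summed level of that list ran from 68.1 to 117 FPKM in KO and from 30.3 to 39.4 FPKM in WT, nearly all of it CD68, which passed (log2 difference 1.35, adjusted p 0.0086 in limma). Its part in the values of the 10 genes was not tested. Of 6 fibroblast markers only COL1A1 was tested (0.36 and 0.27 FPKM in KO, 1.11 and 1.45 FPKM in WT, log2 difference -0.79, adjusted p 0.0091 in limma), and it passed the filter only through its WT libraries. COL1A2 was listed at 0, and the list sum was 0.37 and 0.30 FPKM in KO and 1.13 and 1.48 FPKM in WT. Of 4 endothelial markers none was tested, and their sum stayed under 1 FPKM in each library.

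The members were chosen with the KO and WT values of these libraries known, so their differences are given as a description without a test. Differences are on the scale of log2(FPKM + 1), KO minus WT, with the standard error (SE) from a limma fit over all 11786 genes that had at least 1 FPKM in at least 2 libraries. This scale understates the change of genes with low levels. In RNA from whole cultures, fewer cells making a transcript and less transcript per cell cannot be told apart.

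IL11 was the most abundant of the 10 genes in WT and was far lower in KO. It encodes interleukin-11, a secreted cytokine. IL11 stood at 11.8 and 14.2 FPKM in the KO libraries, against 121 and 130 FPKM in the WT libraries. The groups lie far apart, since the higher KO value was 0.117 times the lower WT value. The means were 12.99 ± 1.68 FPKM in KO and 125 ± 6.30 FPKM in WT (SD, n = 2 each), a log2 difference of -3.18 ± 0.13 (SE). Among the 11786 tested genes it had the fourth lowest log2 difference (rank 4). In WT, 96.6% and 96.7% of all listed genes had a lower FPKM than IL11, whereas in KO 72.6% and 75.4% did. IL11 lies on chromosome 19 (GRCh38, chr19:55364382-55370463, minus strand).

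IL6, the cytokine that gave the family its name, was near the limit of 1 FPKM in KO and below it in WT. IL6 stood at 1.07 and 1.04 FPKM in the KO libraries, against 0.33 and 0.46 FPKM in the WT libraries. Both KO values lay above both WT values, by a factor of 2.26 between the closest of them. The ratio of the means was 2.67, while the log2 difference was 0.56 ± 0.14 (SE), because 1 FPKM is added before the logarithm. IL6 passed the filter on low values only through its KO libraries. In WT 38.0% and 39.8% of listed genes had a lower FPKM, and in KO 44.2% and 44.0%. IL6 mRNA was thus scarce in the libraries of both groups. A transcript that overlaps IL6, LOC541472, was at 0.37 and 0.35 FPKM in KO and at 0.32 and 0.34 FPKM in WT. Strand-specific counting is not stated, so reads of overlapping transcripts cannot be told apart.

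LIF, the gene of leukemia inhibitory factor, was moderately higher in KO. LIF stood at 22.3 and 24.0 FPKM in the KO libraries, against 15.6 and 15.3 FPKM in the WT libraries. The libraries of each group lay close together and the groups did not overlap. The means were 23.1 ± 1.17 FPKM in KO and 15.5 ± 0.233 FPKM in WT (SD, n = 2 each), a log2 difference of 0.55 ± 0.13 (SE).

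**Figure D1:**
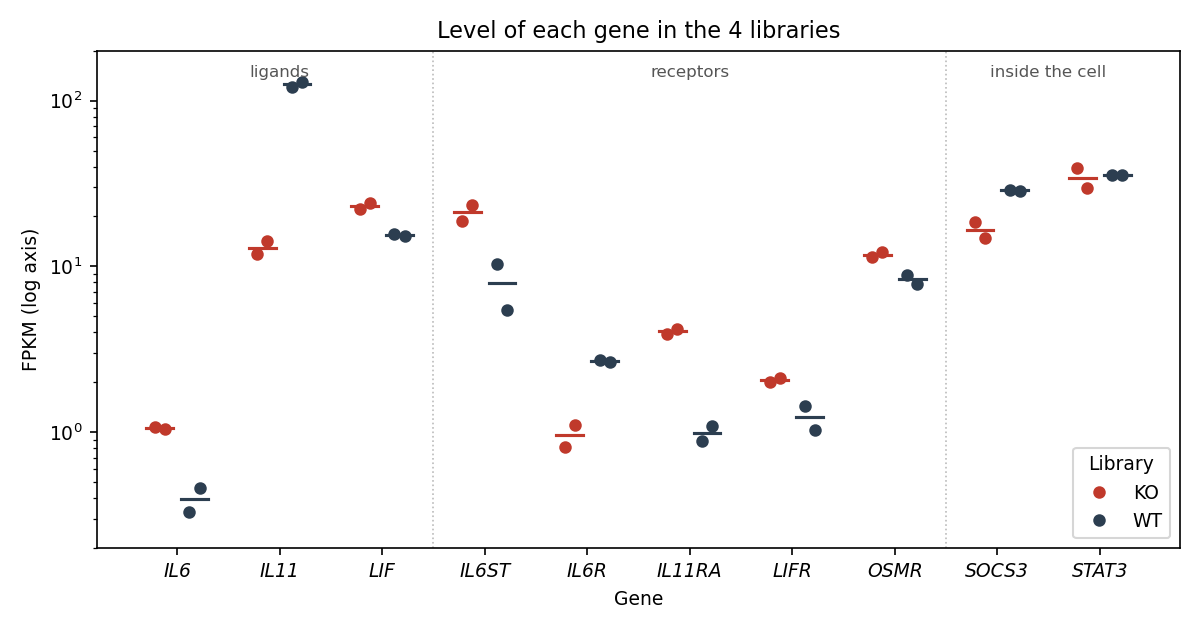
FPKM of the 10 genes on a log axis, with KO libraries (red) left of WT libraries (dark), 1 point per library and a bar at the group mean (n = 2). IL11 averages 12.99 FPKM in KO, against 125 FPKM in WT, and STAT3 is the gene whose groups overlap.

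The make-up of the ligand mRNAs therefore differed between the groups. IL11 made up 33.5% and 36.2% of the summed FPKM of the 3 ligands in KO, against 88.3% and 89.2% in WT. LIF made up 63.4% and 61.2% in KO, against 11.4% and 10.5% in WT. IL6 made up 3.04% and 2.65% in KO, against 0.241% and 0.316% in WT. The sum itself was 35.2 and 39.2 FPKM in KO and 137 and 145 FPKM in WT. There were 0.529 and 0.591 IL11 FPKM per LIF FPKM in KO, against 7.72 and 8.47 in WT. LIF was thus the leading ligand mRNA in KO and IL11 in WT, in both libraries of each group.

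The promoters of IL6 and IL11 are shown because these ligands differed in opposite directions. The sequences are RefSeq's (GRCh38.p14) and run from 250 bases before to 50 bases after the annotated start of the gene. Capitals mark matches to the NF-κB motif (GGG, then any 5 bases, then CC), the AP-1 motif TGANTCA, the STAT motif TTCNNNGAA or the cyclic AMP response element TGACGTCA, on either strand.
IL6 (chr7:22726950-22727249, plus strand): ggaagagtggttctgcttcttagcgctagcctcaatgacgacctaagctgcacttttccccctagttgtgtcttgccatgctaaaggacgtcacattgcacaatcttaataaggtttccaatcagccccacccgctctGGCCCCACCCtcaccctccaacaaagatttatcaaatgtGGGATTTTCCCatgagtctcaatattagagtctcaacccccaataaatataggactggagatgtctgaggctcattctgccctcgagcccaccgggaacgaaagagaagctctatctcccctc
IL11 (chr19:55370414-55370713, minus strand): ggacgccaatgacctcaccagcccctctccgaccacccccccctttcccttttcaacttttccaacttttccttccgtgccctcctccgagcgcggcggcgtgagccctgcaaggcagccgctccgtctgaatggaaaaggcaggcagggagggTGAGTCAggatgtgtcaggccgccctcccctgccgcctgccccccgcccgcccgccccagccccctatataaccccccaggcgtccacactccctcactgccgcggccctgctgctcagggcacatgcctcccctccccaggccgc
The IL6 window held NF-κB matches that begin 112, 73 and 72 bases before the start, the last pair being overlapping matches on opposite strands, of which the first reads GGGATTTTCC. It held no AP-1 match. The IL11 window held 1 AP-1 match, TGAGTCA, beginning 96 bases before the start, and no NF-κB match. Neither held a STAT or a cyclic AMP response element match. Of 35116 promoter windows, 58.7% held the NF-κB motif, 7.71% the AP-1 motif, 7.66% the STAT motif and 1.85% the cyclic AMP response element, so the NF-κB letters are common by themselves. A C/EBP motif, TTNNGNAA, not capitalised in these sequences, was found in 36.8% of windows and began 155 bases before the start in IL6. Such matches describe letters and do not show binding.

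The 5 receptor genes differed in both directions. IL6ST encodes gp130, the subunit that all these cytokines share. IL6ST stood at 18.9 and 23.6 FPKM in the KO libraries, against 10.4 and 5.48 FPKM in the WT libraries. The groups did not overlap, but the WT libraries differed from each other by a factor of 1.90, the widest spread within a group among the 10 genes. The means were 21.2 ± 3.31 FPKM in KO and 7.94 ± 3.47 FPKM in WT (SD, n = 2 each), a log2 difference of 1.36 ± 0.26 (SE). Leaving out the first or the second WT library, or 1 KO library, gave values between 0.955 and 1.77.

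IL6R and IL11RA, the subunits that bind IL6 and IL11 themselves, differed in opposite directions. IL6R stood at 0.81 and 1.11 FPKM in the KO libraries, against 2.71 and 2.65 FPKM in the WT libraries. Both KO values lay below both WT values, and the log2 difference was -0.91 ± 0.15 (SE). IL6R passed the filter only with its WT libraries, since 1 of its KO libraries was under 1 FPKM. IL11RA stood at 3.91 and 4.19 FPKM in the KO libraries, against 0.88 and 1.09 FPKM in the WT libraries. Its groups were separated by a factor of 3.59 between the closest libraries, with a log2 difference of 1.35 ± 0.15 (SE) and a ratio of means of 4.11. IL11RA, like IL6, passed the filter only with its KO libraries, since 1 of its WT libraries was under 1 FPKM. There were 4.83 and 3.77 IL11RA FPKM per IL6R FPKM in KO, against 0.325 and 0.411 in WT, so the more abundant of these receptor mRNAs was IL11RA in KO and IL6R in WT.

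LIFR and OSMR encode the long signalling subunits that pair with gp130 for LIF and oncostatin M. OSMR stood at 11.4 and 12.2 FPKM in the KO libraries, against 8.92 and 7.78 FPKM in the WT libraries, with a log2 difference of 0.45 ± 0.14 (SE). LIFR stood at 2.01 and 2.13 FPKM in the KO libraries, against 1.43 and 1.03 FPKM in the WT libraries, with a log2 difference of 0.47 ± 0.15 (SE). For both genes the groups did not overlap, by factors of 1.27 for OSMR and 1.41 for LIFR between the closest libraries. Of the 4 receptor mRNAs other than IL6ST, OSMR was the most abundant in each library. It had 62.8% and 62.1% of their summed FPKM in KO and 64.0% and 62.0% in WT. The share of IL11RA was 21.6% and 21.4% in KO, against 6.31% and 8.69% in WT, and that of IL6R 4.48% and 5.67% in KO, against 19.4% and 21.1% in WT. The level of IL6ST per summed FPKM of these 4 receptors was 1.04 and 1.202 in KO, against 0.745 and 0.437 in WT.

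**Figure D2:**
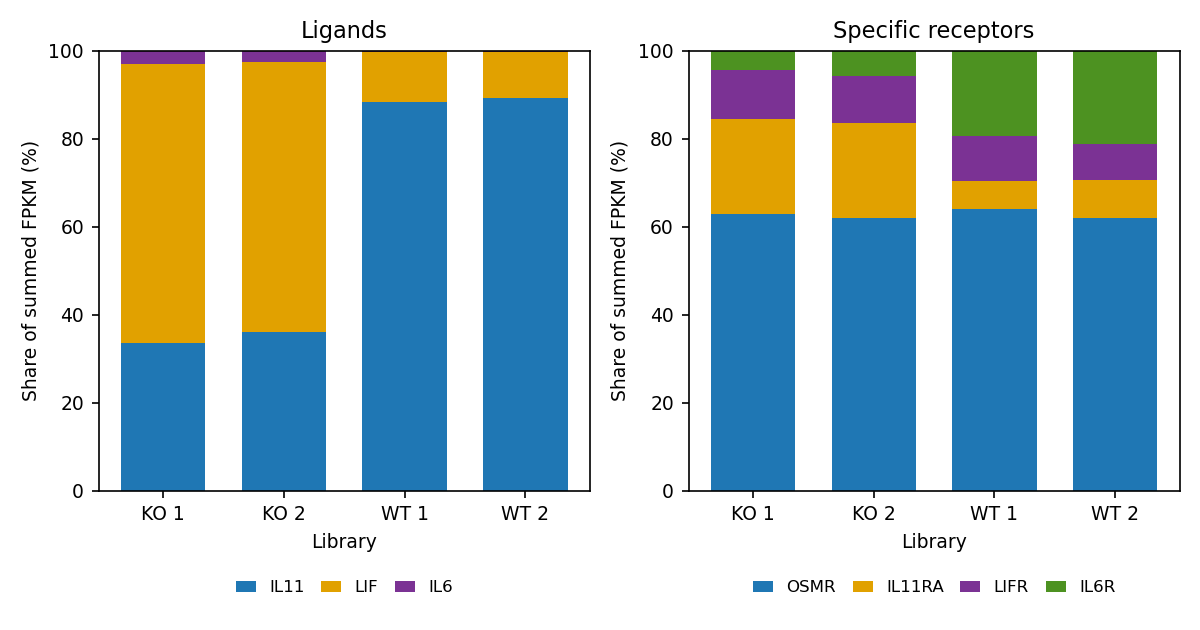
Share of the summed FPKM (%) taken by each ligand (left panel) and each receptor other than IL6ST (right panel). Bars are stacked from 0 to 100, with the 2 KO libraries to the left of the 2 WT libraries. IL11 fills 33.5% and 36.2% of the ligand bar in KO and 88.3% and 89.2% in WT, while OSMR fills 62.0% to 64.0% of the receptor bar in each library.

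SOCS3 was lower in KO and STAT3 was not separated. SOCS3, the feedback inhibitor, stood at 18.4 and 14.8 FPKM in the KO libraries, against 29.1 and 28.6 FPKM in the WT libraries. Its groups did not overlap, and the log2 difference was -0.77 ± 0.14 (SE). STAT3 stood at 39.0 and 29.7 FPKM in the KO libraries, against 35.6 and 35.3 FPKM in the WT libraries. The KO values lay on either side of the WT values, with a log2 difference of -0.06 ± 0.15 (SE) that turned to 0.13 without the second KO library and to -0.25 without the first. The level of SOCS3 per STAT3 FPKM was 0.473 and 0.498 in KO, against 0.817 and 0.808 in WT.

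In KO the order of levels was STAT3, LIF, IL6ST, SOCS3, IL11, OSMR, IL11RA, LIFR, IL6 and IL6R. In that order LIF and IL6ST, IL11 and OSMR, and IL6 and IL6R are neighbours whose libraries overlapped. In WT the order was IL11, STAT3, SOCS3, LIF, OSMR, IL6ST, IL6R, LIFR, IL11RA and IL6. There the libraries of OSMR and IL6ST and those of LIFR and IL11RA overlapped.

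Set against all genes, 27.0% of the 11786 tested genes passed an adjusted p under 0.05 in limma, 16.2% higher and 10.8% lower in KO. Of the 10 members 7 passed, with IL6, LIF, IL6ST and IL11RA higher and IL11, IL6R and SOCS3 lower. Nothing is read from this count, because the members were chosen on these values. Also, IL6 and IL11RA could pass the filter only by being high in KO, and IL6R only by being high in WT. With any 1 library left out IL6 and LIF no longer passed, while IL11, IL6R and IL11RA still did. The log2 differences then ran from 0.49 to 0.63 for IL6 and from 0.50 to 0.60 for LIF. Without the filter on low values the count was 2 (IL11 and IL11RA). It was 8 without the mean-variance trend, where OSMR passed too, and 9 with a crossed replicate block, an alternative chosen after seeing the data, where OSMR and LIFR passed too. With at least 5 FPKM required 5 passed, OSMR among them. IL6, IL6R, IL11RA and LIFR did not reach 5 FPKM in any library and were not tested there. Both KO values lay above both WT values in 6 members and below them in 3, against 39.3% and 28.7%, together 68.0%, of tested genes. The median log2 difference was 0.459 over the members and 0.0738 over all tested genes.

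The genes whose profile over the 4 libraries was closest to those of IL11 and IL6 were found by the root mean square difference of centred log2(FPKM + 1) values. For IL11 these were PAEP (0.114), C16orf45 (0.307) and GRAMD1B (0.384). PAEP stood at 0 and 0.25 FPKM in KO, against 10.6 and 9.31 FPKM in WT. For IL6 they were SLC26A6, EME1 and MED7, at 0.0083 to 0.0124. With 4 libraries, such likeness mostly reflects a similar size of the difference between the groups on this scale, to which 1 FPKM is added. The levels need not be alike. SLC26A6 stood at 10.5 and 10.2 FPKM in KO, against 6.26 and 7.03 FPKM in WT, well above IL6.

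The question whether the microRNA could pair with these transcripts was addressed only as a description of sequence. A microRNA recognises targets mainly through its seed, bases 2 to 8 from its 5′ end. The mature sequence of miR-3662 is given by RefSeq (GRCh38.p14, chr6:134979355-134979378, minus strand) with the seed in capitals.
hsa-miR-3662: gAAAAUGAugaguagugacugaug
Perfect matches of 7 bases to this seed were sought in each gene's longest 3′ UTR as annotated by GENCODE 29. Of the 10 members 4 had a match and 6 had none, and 33.5% of 10635 tested genes with an annotated 3′ UTR had one. The ligands IL6, IL11 and LIF had none, nor had IL11RA, SOCS3 and STAT3. The matches lay in receptor genes, with 2 in IL6ST, 1 in IL6R, 3 in LIFR and 3 in OSMR. The match nearest to the stop codon is shown for each, in DNA letters of the transcript strand (GRCh38), to place the sites the microRNA could pair with.
IL6ST (chr5:55940423-55940444, minus strand): agattaaaagtacTCATTTTtt
IL6R (chr1:154468027-154468048, plus strand): attgttattgcttTCATTTTta
LIFR (chr5:38480769-38480790, minus strand): cattttttaaaaaTCATTTTat
OSMR (chr5:38934174-38934195, plus strand): cagtattctgccaTCATTTTtg
LIFR and OSMR had higher levels in KO, without passing in the limma fit over all genes. Of the 4 genes with a match, IL6ST also had a higher level in KO and IL6R a lower level. The seed match is made mostly of A and T, and their 3′ UTRs are long, at 7641 bases in IL6ST, 6632 in LIFR, 4070 in IL6R and 2197 in OSMR, against a median of 1374 over tested genes.

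Transcripts of cytokines often carry the pentamer ATTTA in the 3′ UTR, a core of AU-rich elements that speed mRNA decay. IL6 had 6 copies in 429 bases, or 14.0 per kilobase, and 99.6% of tested genes had a lower density. IL11 had 9 copies in 1618 bases, or 5.56 per kilobase, above 93.9% of tested genes. LIF had 7 copies in 3204 bases, or 2.18 per kilobase, above 59.5%, and IL11RA had none. The median over tested genes was 1.68 per kilobase.

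**Figure D3:**
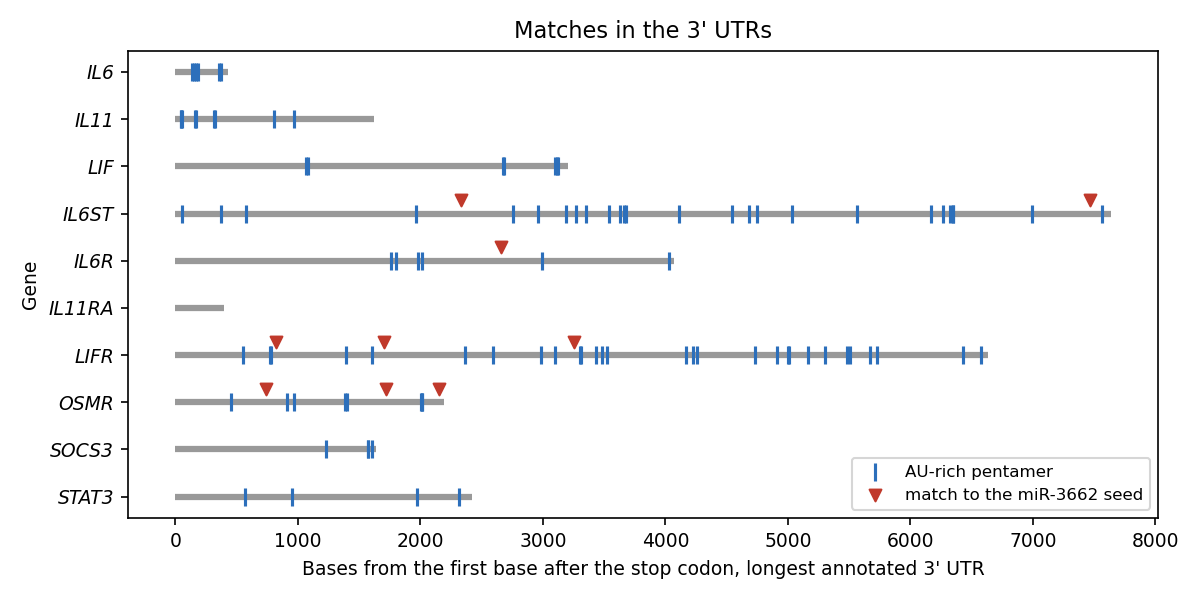
Longest annotated 3′ UTR of each gene drawn to scale in bases from the stop codon (grey), with AU-rich pentamers as blue ticks and matches to the miR-3662 seed as red triangles. Triangles stand over IL6ST, IL6R, LIFR and OSMR, and the 6 ticks of IL6 crowd into 429 bases.

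The rest of the pathway was examined through 8 gene lists with 133 distinct genes, of which 94 were tested. Of these 94, 16 rose and 9 fell at an adjusted p under 0.05 in limma over all genes, together 26.6%, which is near the 27.0% of all tested genes. Their median log2 difference was 0.15. The lists were drawn up with earlier results of these data known. Of 26 called genes of the lists and of the chromosomal neighbours that are named by rule, 22 no longer passed without the filter on low values, and SAA1, SAA2, NFKB2 and JUN still did.

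None of the other ligands and receptors of the family passed in the main fit, and 1 did with the crossed replicate block. Of 11 genes 4 were tested with limma and 0 passed, with 2 at an unadjusted p under 0.05. CLCF1, a ligand related to ciliary neurotrophic factor, stood at 12.0 and 13.4 FPKM in KO and at 14.4 and 15.1 FPKM in WT. IL31RA, a receptor gene that neighbours IL6ST, stood at 6.57 and 9.31 FPKM in KO and at 5.90 and 5.0 FPKM in WT (log2 difference 0.46, adjusted p 0.108). CNTFR and IL27 were listed at 0 in every library, and OSM, the gene of oncostatin M, was not analysed here. Of 6 genes of receptor shedding, by which proteases release soluble IL6R or IL11RA, 5 were tested with limma and 0 passed, with 0 at an unadjusted p under 0.05. The sheddase ADAM10 stood at 29.2 and 29.6 FPKM in KO and at 25.9 and 20.3 FPKM in WT, and ADAM17 at 8.67 and 8.99 FPKM in KO and at 8.53 and 8.92 FPKM in WT.

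Among kinases, other STATs and adaptors, 3 of 12 tested genes rose and 1 fell, with a median log2 difference of 0.0108. STAT2, a transcription factor gene of the response to type I interferon, rose to 8.77 ± 1.24 FPKM in KO, against 3.20 ± 0.424 FPKM in WT (SD, n = 2 each; log2 difference 1.22, adjusted p 0.0036 in limma). STAT5A rose to 1.60 ± 0.0566 FPKM in KO, against 0.475 ± 0.134 FPKM in WT (0.82, adjusted p 0.0076), though it passed the filter only through its KO libraries, where it is high. STAT6 rose to 27.3 ± 0.849 FPKM in KO, against 16.9 ± 2.13 FPKM in WT (0.66, adjusted p 0.0134), but missed the threshold with the second KO library left out (0.0674) or with the first WT library left out (0.0802). The adaptor gene GRB2 fell by 0.38 on the log2 scale (adjusted p 0.0368), to 89.9 ± 2.53 FPKM in KO, against 117 ± 5.32 FPKM in WT, and did not pass without any 1 of the 4 libraries (0.0667 to 0.196). JAK1, the kinase most used by gp130, stood at 24.1 and 20.8 FPKM in KO and at 18.4 and 16.9 FPKM in WT (0.33, adjusted p 0.114), and JAK2 was under 1 FPKM in each library.

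Among the inhibitors of the pathway other than SOCS3, 1 of 11 tested genes fell and none rose, with a median log2 difference of 0.0922. SOCS2, an inhibitor best known for limiting growth hormone signals, fell to 1.48 ± 0.573 FPKM in KO, against 3.55 ± 0.170 FPKM in WT (SD, n = 2 each; log2 difference -0.90, adjusted p 0.0133 in limma). With the second KO library left out its adjusted p was 0.0792, and with the second WT library left out it was 0.0503. SOCS1 and CISH, other feedback genes, were under 1 FPKM in each library.

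Of genes reported as STAT3 targets, 6 of 21 tested rose and 1 fell, together 33.3%, with a median log2 difference of 0.22. SAA1, an acute-phase protein gene, rose to 12.2 ± 1.94 FPKM in KO, against 1.22 ± 0.163 FPKM in WT (SD, n = 2 each; log2 difference 2.57, adjusted p 0.00039 in limma). SAA2 rose by 1.23 (adjusted p 0.0024), but SAA1 and SAA2 are near-identical copies that share reads, so the split between them is uncertain. SAA2 was at 0.10 and 0 FPKM in WT and passed the filter only through its KO libraries (1.63 and 1.29 FPKM). MUC1 also rose, though not past the threshold without the first KO library, and passed the filter only with its KO libraries. It stood at 3.24 and 2.44 FPKM in KO, against 0.72 and 1.2 FPKM in WT. CEBPD, a transcription factor gene induced in the acute phase, rose to 8.85 ± 3.05 FPKM in KO, against 2.41 ± 0.474 FPKM in WT (1.504, adjusted p 0.0050). MYC fell to 68.5 ± 3.34 FPKM in KO, against 102 ± 0.0495 FPKM in WT (-0.57, adjusted p 0.0102), and missed the threshold when either WT library was left out (0.0635 and 0.0584). BCL3, PIM1, JUNB and MCL1 did not pass, with log2 differences of 0.88, 0.20, 0.23 and -0.27. FGG, a fibrinogen gene, was listed at 0 in every library. Many of these genes have other inputs, and 6 of them also stand on the next list. CEBPD, HIF1A and IRF1 are among those 6, and their rises are counted on both lists.

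Of transcription factors reported to act on IL6, IL11 or LIF, 6 of 23 tested rose and 3 fell, together 39.1%, with a median log2 difference of 0.0467. The rises with the smallest p were those of NFKB2 and RELB, the pair of the alternative NF-κB pathway, and CEBPD, given above with the STAT3 targets. NFKB2 rose to 47.3 ± 2.39 FPKM in KO, against 17.1 ± 3.78 FPKM in WT (SD, n = 2 each; log2 difference 1.43, adjusted p 0.0021 in limma). RELB rose to 11.8 ± 0.445 FPKM in KO, against 3.35 ± 1.70 FPKM in WT (1.62, adjusted p 0.0054). The subunit genes of the canonical pathway did not pass, with RELA at 58.4 and 57.9 FPKM in KO and 59.5 and 65.3 FPKM in WT, and NFKB1 at 13.9 and 10.2 FPKM in KO and 15.4 and 15.1 FPKM in WT. JUN, a subunit of AP-1, fell to 40.0 ± 3.02 FPKM in KO, against 76.2 ± 3.05 FPKM in WT (-0.92, adjusted p 0.0031). JUND, another AP-1 subunit gene, rose by 0.70 on the log2 scale (adjusted p 0.0418 in limma). It stood at 19.9 and 22.9 FPKM in KO, against 10.1 and 16.0 FPKM in WT. With the libraries scaled by the median of ratios JUND did not pass (adjusted p 0.0510 in limma). Nor did it pass without the first KO, the second KO or the first WT library. The AP-1 partner gene FOSL1 was abundant and did not pass, at 220 and 217 FPKM in KO and 249 and 254 FPKM in WT. ATF4 (-0.69, adjusted p 0.0138) and the heat shock factor gene HSF1 (-0.46, adjusted p 0.0185) also fell. ATF4 missed the threshold without the first KO library (0.0587) or the second WT library (0.0835), and HSF1 without the first KO library (0.0564) or either WT library (0.0902 and 0.105).

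**Figure D4:**
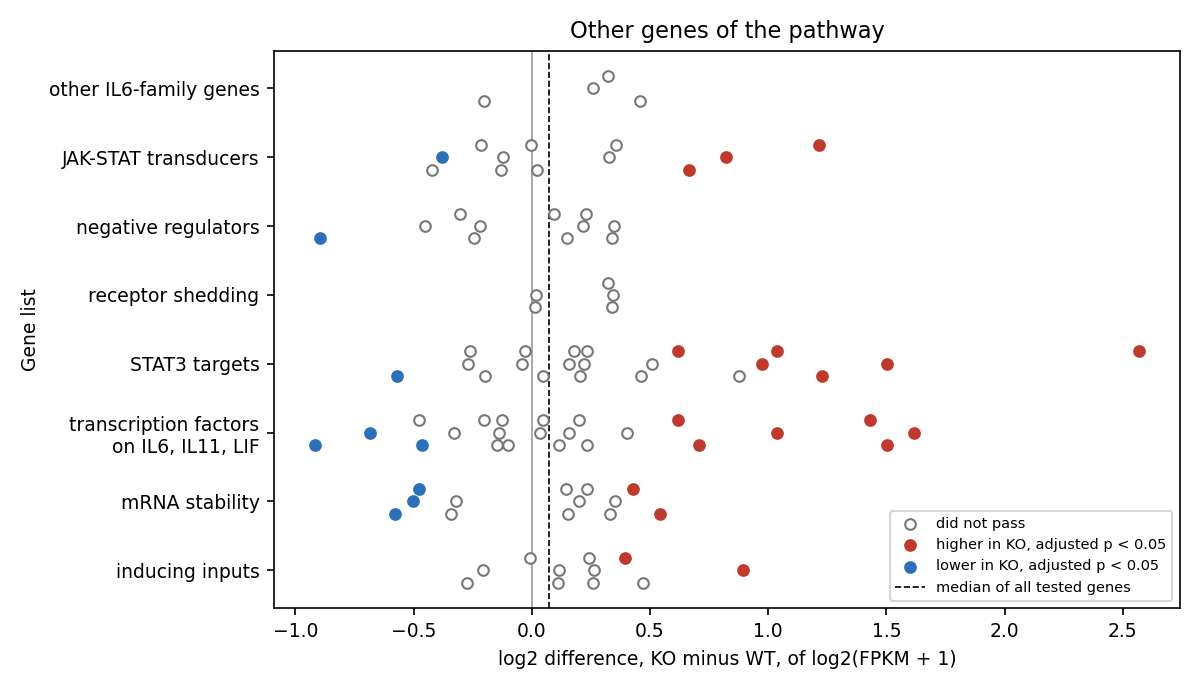
Log2 difference, KO minus WT, of log2(FPKM + 1) for each tested gene of the 8 lists (1 point per gene, n = 2 libraries per group), filled red where higher and blue where lower at an adjusted p under 0.05 and open where not passing, with a dashed line at the median of all tested genes (0.0738). Filled points are spread to both sides, and the lists of other IL6-family genes and receptor shedding have none.

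On the list of RNA-binding proteins and other genes linked to the stability of cytokine mRNAs, 2 of 13 tested genes rose and 3 fell, with a median log2 difference of 0.15. KHSRP, which promotes decay of AU-rich mRNAs, fell to 114 ± 8.41 FPKM in KO, against 170 ± 4.94 FPKM in WT (SD, n = 2 each; log2 difference -0.58, adjusted p 0.0098 in limma). HNRNPD, which encodes the AU-rich element binding protein AUF1, fell by 0.48 on the log2 scale (adjusted p 0.0162), and ELAVL1, which encodes the stabilising protein HuR, fell by 0.50 (0.0245). HMGA2, a gene of a chromatin factor that binds DNA and not an RNA-binding protein of this kind, rose by 0.43 (0.0415), and ZC3H12A, which encodes regnase-1, a nuclease that cleaves IL6 mRNA, rose by 0.54 (0.0447). ZFP36, which encodes the decay factor tristetraprolin, stood at 3.43 and 3.46 FPKM in KO and at 2.87 and 3.17 FPKM in WT and did not pass. LIN28B was listed at 0 in every library. Each of these calls was lost when at least 1 of the libraries was left out. KHSRP did not pass without the first WT library (0.0686), HNRNPD and ELAVL1 did not without the second KO, the first WT or the second WT library (0.0585 to 0.115 and 0.101 to 0.103), HMGA2 did not without any 1 library (0.0959 to 0.189), and ZC3H12A passed only without the second WT library (0.0433, against 0.147 to 0.192 without the others). With the libraries scaled by the median of ratios HMGA2 and ZC3H12A did not pass (0.0641 and 0.0583), and the list then had 3 calls.

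Of inputs that induce these cytokines, 2 of 11 tested genes rose and none fell, with a median log2 difference of 0.24. TGFBR2, a receptor subunit for TGF-β, which induces IL11, rose to 75.8 ± 0.530 FPKM in KO, against 57.4 ± 0.0141 FPKM in WT (SD, n = 2 each; log2 difference 0.39, adjusted p 0.0329 in limma). The ligand gene TGFB2 rose by 0.89 (adjusted p 0.0400), at 10.2 and 6.08 FPKM in KO against 4.79 and 2.98 FPKM in WT. TGFBR2 did not pass without any 1 of the libraries (0.0815 to 0.141), and TGFB2 did not without the first KO library (0.189) or the second WT library (0.172). After scaling TGFBR2 did not pass (0.0528). TNF was at 0.05 FPKM or less in each library, and IL1A, IL1B and IL1R1 did not reach the filter.

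The neighbours of the members on the chromosomes were examined to see whether a member differed alone. The nearest listed genes on both sides comprised 20 genes that are not members, of which 10 were tested, 9 were below the filter and 1 was listed at 0. Of the 10 tested, 5 rose and 1 fell in limma over all genes, where 16.2% of all tested genes were higher and 10.8% lower. Of the 5 that rose, LOC730098 and STAT5A were tested only because their KO values reached the filter. With 1 library left out at a time, 2 to 4 neighbours passed. On chromosome 9, where IL11RA lies (chr9:34652185-34661902), both neighbours rose. GALT, a galactose metabolism gene that ends 1150 bases before IL11RA, stood at 13 and 13.4 FPKM in KO against 6.0 and 6.90 FPKM in WT (log2 difference 0.93, adjusted p 0.0053). LOC730098 stood at 2.04 and 2.01 FPKM in KO against 0.65 and 0.95 FPKM in WT (0.75, adjusted p 0.0117), and passed the filter only through its KO libraries. Beside OSMR, the overlapping gene RICTOR rose by 0.71 (adjusted p 0.0369), beside LIF GATSL3 rose by 0.77 (0.0141), and beside STAT3 STAT5A rose as given above and PTRF fell by 0.53 on the log2 scale (0.0196). The neighbours of IL11 were both under 1 FPKM, FAM71E2 listed at 0 in every library and TMEM190 at 0.22 and 0.15 FPKM in KO and 0.07 and 0 FPKM in WT. TOMM7 beside IL6 (0.39, adjusted p 0.0842), MTMR3 beside LIF (-0.25, 0.241) and ATP8B2 beside IL6R (0.05, 0.794) did not pass. LOC730098 and GATSL3 did not pass without the first KO, the second KO or the first WT library (0.0518 to 0.0566 and 0.0565 to 0.0765), RICTOR did not without the first KO, the second KO or the second WT library (0.0673 to 0.194), and PTRF did not without the second KO library or either WT library (0.0716 to 0.105). TOMM7 passed without the first KO library (0.0458). The transcripts that lie nearest to or overlap the remaining members, among them LIFR-AS1, OSMR-AS1 and LOC101928674 beside SOCS3, were under 1 FPKM in each library.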

How the data were processed

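Total RNA was isolated with Trizol, and the Illumina TruSeq RNA kit gave the libraries, per the labels' protocols. The authors deposited FPKM values with 2 decimals for 20804 genes in 4 libraries. HISAT, StringTie, Cufflinks, GATK and genome build hg38 are named in the submitters' processing notes, with no roles or versions. For filters, strand and depth the sources used here give nothing. FPKM divides by depth and length, so the precision of a low value cannot be read from it.

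Dates that had replaced 11 symbols were restored from gene identifiers. Values were tested as log2(FPKM + 1) in genes at 1 FPKM or more in 2 or more libraries, without further scaling, by limma 3.58.1 (R 4.3.3) with the variance modelled as a trend of the mean and Benjamini-Hochberg adjustment across the 11786 genes, at 0.05. The fit was tested on simulated data. Coordinates and promoters are RefSeq's (GRCh38.p14, the same assembly as hg38), and 3′ UTRs are GENCODE 29's. Of the members, 9 had a promoter entry. LIF had none. All analysis used Python 3.11.15 and pandas 2.3.3. Alternatives were another pseudocount, filter, scaling or variance model, a replicate block and leaving out each library.

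The members and lists were chosen with earlier results of these data known. The text names each member, up to 3 called genes per list and direction with the smallest p, genes listed at 0, the nearest genes and the 3 closest profiles of IL11 and IL6. Some results that the rule names are not reported here. Other named list genes and markers were picked after their values were seen, to fill in the pathway.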

Additional observations from a re-analysis of the deposited data

How the results depend on the processing

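Leaving out 1 library at a time moved the count of called genes between 1402 and 1902 (main 3184), with 845 to 1183 higher and 509 to 824 lower. Calls ran from 2 to 4 of the kinases, STATs and adaptors, 0 to 1 of the inhibitors, 4 to 7 of the STAT3 targets, 4 to 8 of the transcription factors, 0 to 3 of the regulators of mRNA stability, 0 to 1 of the inducing inputs and 2 to 4 of the neighbours. No call was made among the other IL6-family genes or receptor shedding genes under any of these. ATP8B2, which never passed, ran from -0.0084 to 0.12.

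Without a filter on low values 525 genes passed, 290 higher and 235 lower. The calls then were 2 among STAT3 targets, 2 among transcription factors, and 0 among kinases, STATs and adaptors, inhibitors, mRNA stability genes, inducing inputs and neighbours, although 5, 3, 5 and 4 genes of those lists other than the neighbours had an unadjusted p under 0.05 in limma. Of 26 called list genes and neighbours named by rule 22 no longer passed. With at least 5 FPKM required, 2 neighbours passed, GALT and PTRF. The neighbours GATSL3, LOC730098, RICTOR and STAT5A did not reach 5 FPKM and were not tested there. Scaling gave 1633 higher and 1489 lower genes, and 2 calls among inhibitors, 3 among mRNA stability genes and 1 among inducing inputs. Without the mean-variance trend the inducing inputs had 1 call.

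Adding 0.1 in place of 1 FPKM gave log2 differences of 1.23 for IL6, -1.41 for IL6R, 1.94 for IL11RA and 0.72 for LIFR.

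The replicate numbers of the titles were not shown to pair the libraries, since the deviations of same-numbered libraries correlated at -0.177 across genes. With a replicate block 2864 genes passed, with 3 calls among mRNA stability genes and 1 among inducing inputs. With the numbers crossed, an alternative chosen after seeing the data, 4170 passed. The depth of the libraries is unknown, which limits what can be said of IL6, IL6R, LIFR and IL11RA, all near 1 FPKM in at least 1 group.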
